A study of Mus musculus with 24 samples.

Results

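The genes of 10 adipokines and other secreted adipocyte proteins were followed across primary mouse precursor cells of 2 fat depots. They are *Adipoq*, *Retn*, *Lep*, *Cfd*, *Apln*, *Rbp4*, *Lcn2*, *Hp*, *Agt* and *Nrg4*, chosen by name, and each was found once by its symbol among the 49452 genes of the deposited table. RNA was sequenced from 24 cultures of stromal vascular fraction cells, the cells left once the lipid-filled adipocytes are removed, 3 for each of 8 groups. The groups combine depot, siRNA and day. BAT cells came from interscapular brown fat and vWAT cells from epididymal fat (labelled WAT in the titles), both of male C57BL/6 mice of 6 to 8 weeks, with BAT tissue pooled where cell numbers required it. All cultures, controls included, had been nucleofected with an siRNA, and none was left without transfection. The siRNA was either a non-targeting control (siCtrl, labelled siKO in the titles) or 1 against the long non-coding RNA *H19* (siH19, labelled siH19_3 in the titles). Cells were used 48 to 72 h after transfection. Cells were taken at d0 or after 3 days of adipogenic culture (d3). The labels list insulin, dexamethasone, rosiglitazone and IBMX for induction, with indomethacin and triiodothyronine for BAT, followed by rosiglitazone for vWAT or triiodothyronine for BAT. Depot and medium therefore cannot be told apart at d3. The sample descriptions also carry 1 prefix for all BAT libraries and another for all vWAT libraries. What the prefix stands for is not stated, and depot cannot be told apart from it at either day. Nothing states that the 3 cultures of a group came from separate animals, so the p-values measure the spread between these cultures.

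Adipokines are proteins that fat cells release into blood or the surrounding tissue. Adiponectin, leptin, resistin and apelin act on receptors of other cells, whereas adipsin, haptoglobin, lipocalin 2, retinol binding protein and angiotensinogen act as an enzyme, as carriers or as a precursor. White fat is best known as an endocrine tissue, brown fat as a heat-producing one that also releases factors such as neuregulin 4. Precursor cells take on some of these genes as they become adipocytes.

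Expression was read as FPKM, the fragments of a gene relative to transcript length and to all fragments of the library, so that levels of different genes can be compared per length. Fold changes are differences of log2(FPKM + 1), which understates changes of low genes. A gene was called when limma gave a Benjamini-Hochberg adjusted p under 0.05 over all genes tested and, for 2-group comparisons, a change of at least 1.3-fold. The read depth of the libraries is unknown. Relative depth, read from the steps between low values, was 0.825 to 0.983 in BAT and 1.02 to 1.17 in vWAT libraries, and replicates correlated across genes with Pearson r of 0.988 to 0.991. *H19* itself fell in all 4 siH19 comparisons, from 89.8 ± 8.76 FPKM to 13.7 ± 2.79 FPKM in BAT at d3 and from 8.59 ± 0.361 FPKM to 0.528 ± 0.380 FPKM in vWAT at d3 (SD, n = 3 each). The vWAT call at d3 was held in 2 of 6 fits that left out 1 library, those without siH19 replicate 2 or 3 (limma, adjusted p up to 0.056). Of the brown markers *Ucp1*, the heat-producing protein of brown fat, was listed at 12.1 ± 3.79 FPKM (SD, n = 3) in BAT siCtrl cultures at d3 and at 0 in all 12 vWAT libraries. The summed brown markers were 735 to 853 FPKM in BAT and 138 to 153 FPKM in vWAT siCtrl cultures at d3, when the media differed too. At d0 they were 2.36 to 5.06 FPKM and 1.57 to 3.91 FPKM and did not separate the depots. The d0 cultures were not free of adipocyte transcripts. The summed level of 6 adipocyte markers (*Fabp4*, *Plin1*, *Pparg*, *Cebpa*, *Cidec* and *Lipe*) was already 2300.1 to 2491 FPKM in BAT and 3067 to 3087 FPKM in vWAT siCtrl cultures at d0. In bulk RNA, fewer cells of a type and less RNA per cell cannot be told apart. Replicates 2 and 3 of vWAT siCtrl at d0 stood apart by neutrophil genes. *S100a8* was listed at 184 and 77.6 FPKM there and at 3.56 FPKM in replicate 1, and the summed neutrophil markers were 2.74 to 6.10 FPKM in vWAT siH19 at d0. Neutrophils also store the proteins of *Lcn2* and *Hp*. Each result for an adipokine gene that uses these libraries is given without them where that changed a call. For other single genes and marker lists this was done only for the effect of siH19 in vWAT at d0. Their other results that use these libraries include them.

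The sequence just before the start of a gene is shown for 5 genes. *Adipoq* and *Rbp4* are shown because their levels ran together over the libraries, *Cfd* because it went the other way, and *Retn* and *Nrg4* because the depots differ in them in opposite directions at d3. The sequences are the 250 bases before the RefSeq start (build GRCm38.p6), 5′ to 3′ on the strand of the gene, and capitals mark matches to 4 motifs. These were TATAAA, the core promoter box bound by the general transcription machinery, CCAAT, a box bound by NF-Y, AGGTCA, the unit that nuclear receptors recognise, and TTGCNNAA, recognised by the C/EBP family, all searched on both strands.
*Adipoq*, chr16:23146286-23146535, plus strand: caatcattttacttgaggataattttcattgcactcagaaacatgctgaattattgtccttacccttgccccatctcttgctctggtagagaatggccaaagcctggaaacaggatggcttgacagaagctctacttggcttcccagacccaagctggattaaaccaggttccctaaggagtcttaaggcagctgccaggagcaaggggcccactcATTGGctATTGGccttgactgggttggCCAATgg
*Rbp4*, chr19:38125322-38125571, minus strand: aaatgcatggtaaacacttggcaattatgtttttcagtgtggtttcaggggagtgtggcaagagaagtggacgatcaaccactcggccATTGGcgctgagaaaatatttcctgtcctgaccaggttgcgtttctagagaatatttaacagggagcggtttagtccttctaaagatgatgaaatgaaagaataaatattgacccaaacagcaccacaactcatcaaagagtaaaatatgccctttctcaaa
*Cfd*, chr10:79890603-79890852, plus strand: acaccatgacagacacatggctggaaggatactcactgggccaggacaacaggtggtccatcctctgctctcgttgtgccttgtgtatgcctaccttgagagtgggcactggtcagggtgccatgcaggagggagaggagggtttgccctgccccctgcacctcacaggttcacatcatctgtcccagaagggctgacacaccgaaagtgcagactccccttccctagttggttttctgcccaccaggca
*Retn*, chr8:3655520-3655769, plus strand: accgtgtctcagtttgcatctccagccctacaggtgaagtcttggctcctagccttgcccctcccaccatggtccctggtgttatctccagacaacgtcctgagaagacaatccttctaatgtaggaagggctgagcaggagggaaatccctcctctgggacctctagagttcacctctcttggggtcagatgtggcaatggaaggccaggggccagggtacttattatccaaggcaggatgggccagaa
*Nrg4*, chr9:55283626-55283875, minus strand: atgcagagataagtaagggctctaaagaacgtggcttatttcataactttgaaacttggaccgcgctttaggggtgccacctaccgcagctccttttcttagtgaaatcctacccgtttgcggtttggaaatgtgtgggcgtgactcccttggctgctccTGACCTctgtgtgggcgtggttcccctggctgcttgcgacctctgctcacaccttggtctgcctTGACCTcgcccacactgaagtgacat

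CCAAT was found 3 times within 34 bases of the *Adipoq* start, on the gene strand at bases 7 to 3 before it and on the other strand at bases 34 to 30 and 27 to 23. It was also found once, on the other strand, in the *Rbp4* window. In all, 33.8% of 32851 windows of the same length held it. AGGTCA was found at bases 90 to 85 and 26 to 21 before the *Nrg4* start, both on the other strand, and in 14.0% of all windows. None of the 4 motifs was found in the *Cfd* and *Retn* windows. Sequences for 9 of the 10 genes were matched, with 2 starts for *Rbp4*. Over these 10 windows TATAAA was found in 2 (*Agt* and the second *Rbp4* start), against 12.4% of all windows, and TTGCNNAA in 3 (*Lep*, *Lcn2* and the second *Rbp4* start), against 9.56% of all windows. In *Lep* the letters TTGCNNAA matched on both strands at bases 55 to 48. A match of letters is a description and no evidence of binding. The *Nrg4* window lies inside the longer gene that the deposited table gives, since the RefSeq start used here is downstream of the 5′ end of that gene.

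In siCtrl cultures, 5 of the 9 tested genes rose from d0 to d3 in BAT, 3 fell and 1 did not pass, while 7 rose and 2 fell in vWAT. *Lep* reached 1 FPKM in none of the 24 libraries and was not tested. The background was broad, with 29.9% of all tested genes called higher and 35.3% called lower in BAT, and 26.3% and 23.9% in vWAT. The median log2 fold change of the 9 genes was 1.41 in BAT and 1.31 in vWAT, against -0.10 and 0.011 over all tested genes. Adipocyte markers rose beside them (6 of 6 called in both depots). Precursor markers fell in BAT, from 596 to 675 FPKM to 261 to 297 FPKM (4 of 4 called lower), and in vWAT they were at 474 to 529 FPKM and 613 to 692 FPKM (1 called higher, 2 lower of 4). Macrophage markers were at 128 to 159.9 FPKM and 125 to 157 FPKM in BAT (3 of 4 called lower) and at 273 to 304 FPKM and 458 to 500.4 FPKM in vWAT (2 higher and 3 lower of 5). Mesothelial markers in vWAT went from 80.1 to 93.5 FPKM to 33.4 to 38.0 FPKM (3 of 4 called lower), and the part of these cell types was not tested.

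**Figure D1:**
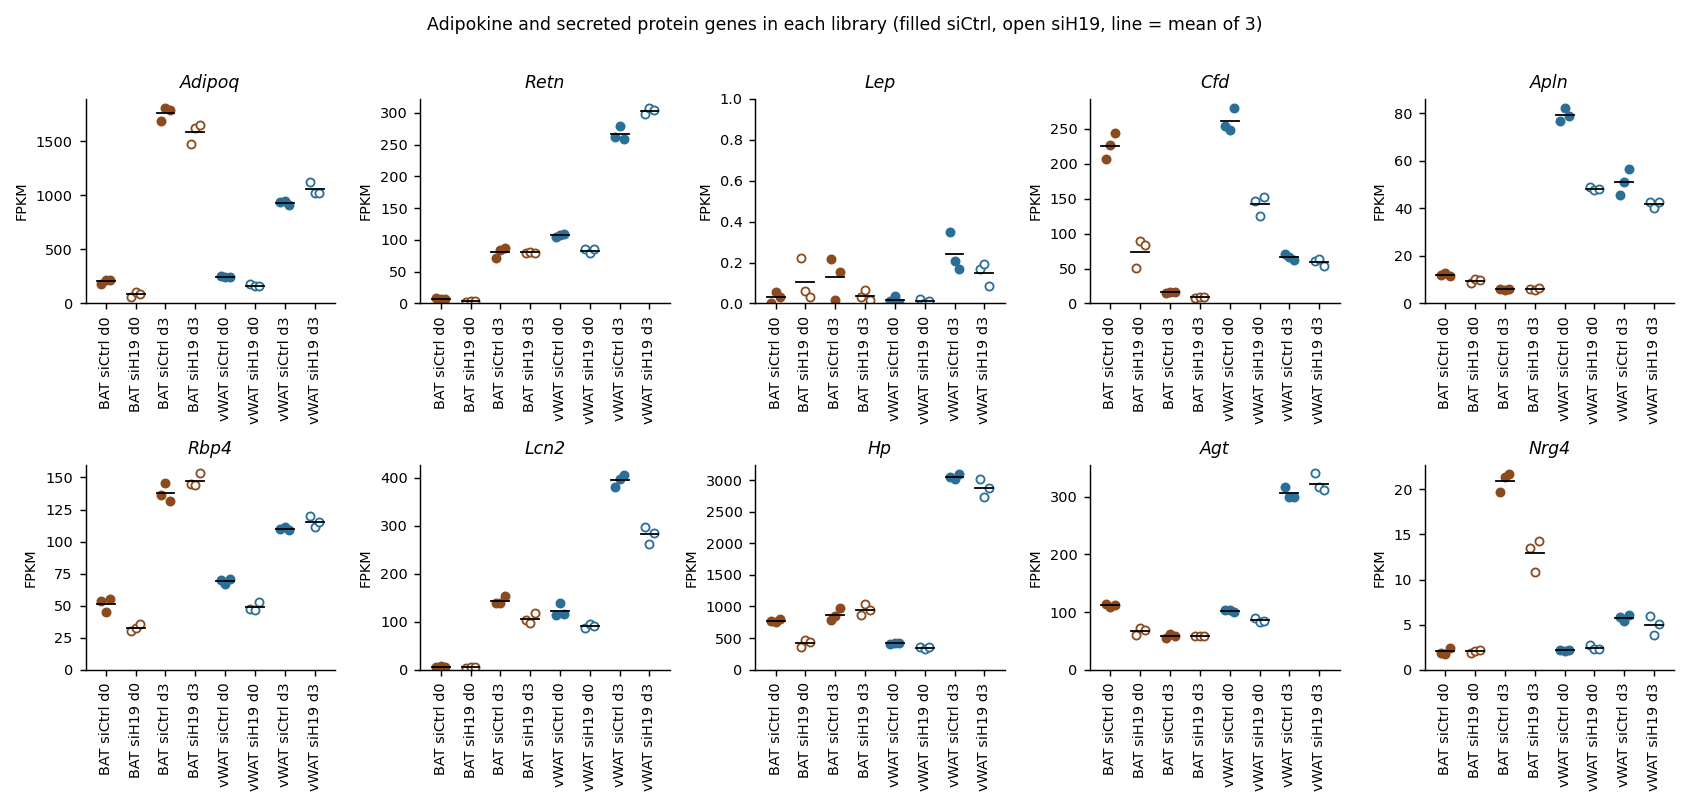
FPKM of the 10 genes in each of the 24 libraries, 1 panel per gene with its own linear axis from 0, brown for BAT, blue for vWAT, filled for siCtrl, open for siH19, with a line at the mean of 3. *Adipoq* and *Nrg4* are highest in BAT at d3, *Retn*, *Lcn2*, *Hp* and *Agt* in vWAT at d3, *Cfd* and *Apln* in vWAT siCtrl at d0, and all *Lep* values lie under 0.352 FPKM.

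*Adipoq* (ENSMUSG00000022878, chromosome 16, 23146536 to 23158028, plus strand) encodes adiponectin, an insulin-sensitising hormone made almost only by adipocytes. In siCtrl BAT cultures it was listed at 184, 213 and 222 FPKM at d0 and 1685, 1805 and 1791 FPKM at d3. In siCtrl vWAT cultures it was listed at 258, 242 and 246 FPKM at d0 and 939.5, 949.5 and 908 FPKM at d3. The libraries of the 2 days did not overlap in either depot, and the d0 levels of the depots lay close together. It rose 8.54-fold in BAT (log2 fold change 3.09, standard error 0.074, limma, adjusted p = 1.2e-07) and 3.75-fold in vWAT (log2 fold change 1.90, standard error 0.037, limma, adjusted p = 2e-07). By mean it was the 42nd most abundant gene of the table in BAT and the 117th in vWAT at d3.

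*Retn* (ENSMUSG00000012705, chromosome 8, 3655770 to 3660110, plus strand) encodes resistin, a small hormone that adipocytes make in mice. It was listed at 8.31, 7.07 and 7.51 FPKM in siCtrl BAT at d0 and 71.3, 83.6 and 88.1 FPKM at d3. In siCtrl vWAT it was listed at 105, 108 and 109 FPKM at d0 and 262, 279 and 259 FPKM at d3. Every siCtrl vWAT library at d0 thus lay above every siCtrl BAT library at d3. It rose 10.6-fold in BAT (log2 fold change 3.25, standard error 0.095, limma, adjusted p = 2.5e-07) and 2.49-fold in vWAT (log2 fold change 1.31, standard error 0.041, limma, adjusted p = 1e-06).

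*Lep* (ENSMUSG00000059201, chromosome 6, 29060220 to 29073877, plus strand) encodes leptin, the satiety hormone of white fat. Its values ranged from 0 to 0.351 FPKM, with the highest group mean, 0.243 ± 0.0958 FPKM (SD, n = 3), in siCtrl vWAT at d3. Neighbouring groups overlapped throughout. Its receptor *Lepr* had a highest group mean of 0.142 ± 0.0824 FPKM (SD, n = 3).

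*Cfd* (ENSMUSG00000061780, chromosome 10, 79890853 to 79892656, plus strand) encodes adipsin, or complement factor D, a serine protease that cleaves factor B and is abundant in mature fat. In siCtrl BAT it was listed at 207, 227 and 244 FPKM at d0 and 14.6, 17.2 and 16.5 FPKM at d3. Its siCtrl vWAT values were 254, 248 and 279.6 FPKM at d0 and 70.6, 67.1 and 62.5 FPKM at d3. *Cfd* thus fell in both depots while the summed adipocyte markers rose to 33277 to 34852 FPKM in BAT and 16998 to 17937 FPKM in vWAT. The d3 mean was 0.0712 of the d0 mean in BAT (log2 fold change -3.73, standard error 0.083, limma, adjusted p = 8.8e-08) and 0.256 of it in vWAT (log2 fold change -1.95, standard error 0.064, limma, adjusted p = 1.2e-06).

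**Figure D2:**
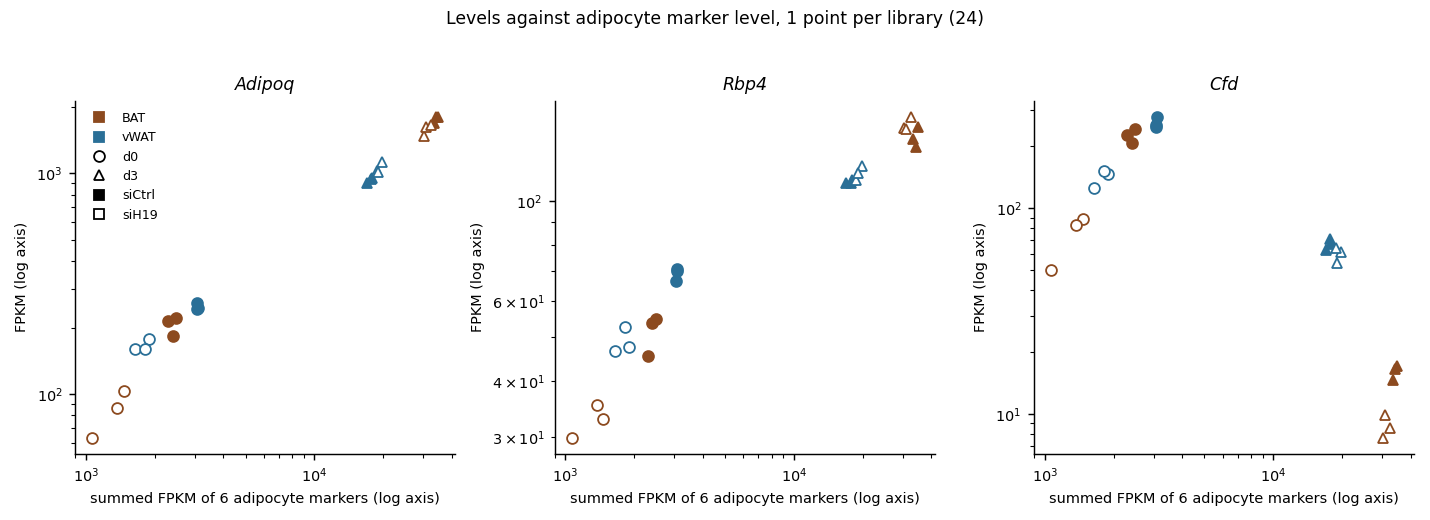
FPKM of *Adipoq*, *Rbp4* and *Cfd* (log axes) against the summed FPKM of 6 adipocyte markers (log axis), 1 point per library, circles d0, triangles d3, filled siCtrl, open siH19. *Adipoq* and *Rbp4* are higher where the markers are higher, whereas *Cfd* is 50.2 to 280 FPKM at d0, where the markers are low, and 7.68 to 70.6 FPKM at d3, where they are high.

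*Apln* (ENSMUSG00000037010, chromosome X, 48025146 to 48034853, minus strand) encodes apelin, the peptide ligand of the receptor *Aplnr*. Values were 11.9, 12.6 and 11.6 FPKM in siCtrl BAT at d0 and 6.05, 5.85 and 6.21 FPKM at d3. The siCtrl vWAT libraries gave 76.8, 82.3 and 78.9 FPKM at d0 and 45.7, 51.3 and 56.6 FPKM at d3. It fell in BAT (log2 fold change -0.89, standard error 0.066, limma, adjusted p = 2.1e-05) and in vWAT (log2 fold change -0.63, standard error 0.080, limma, adjusted p = 0.0005), without overlap of the days. Each of the 12 vWAT libraries lay above each of the 12 BAT libraries.

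*Rbp4* (ENSMUSG00000024990, chromosome 19, 38116620 to 38125321, minus strand) encodes the carrier of retinol in blood. The table gave it 53.7, 45.4 and 54.9 FPKM in siCtrl BAT at d0 and 137, 146 and 132 FPKM at d3. For siCtrl vWAT the values were 69.9, 66.5 and 70.6 FPKM at d0 and 109.6, 111 and 109 FPKM at d3. It varied least of the 9 tested genes, with a ratio of 4.50 between the highest and the lowest group mean. It rose 2.69-fold in BAT (log2 fold change 1.41, standard error 0.081, limma, adjusted p = 5.9e-06) and 1.59-fold in vWAT (log2 fold change 0.67, standard error 0.038, limma, adjusted p = 1.2e-05).

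*Lcn2* (ENSMUSG00000026822, chromosome 2, 32384633 to 32388252, minus strand) encodes lipocalin 2, which binds bacterial iron carriers. Its values were 5.50, 6.93 and 6.49 FPKM in siCtrl BAT at d0 and 139.7, 139 and 154 FPKM at d3. siCtrl vWAT cultures had 113, 138 and 117 FPKM at d0 and 381, 397 and 406 FPKM at d3. The highest vWAT value at d0 was that of replicate 2, the library with the most *S100a8*. Its rise of 22.8-fold in BAT (log2 fold change 4.31, standard error 0.087, limma, adjusted p = 6.7e-08) was the largest of the 9 genes, against 3.22-fold in vWAT (log2 fold change 1.68, standard error 0.078, limma, adjusted p = 4.8e-06).

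*Hp* (ENSMUSG00000031722, chromosome 8, 109575128 to 109579172, minus strand) encodes haptoglobin, which binds free haemoglobin. It was listed at 768, 761 and 797 FPKM in siCtrl BAT at d0 and 783, 846 and 980.1 FPKM at d3, and the days overlapped (log2 fold change 0.16, standard error 0.080, limma, adjusted p = 0.11). In siCtrl vWAT it was listed at 413, 426 and 425 FPKM at d0 and 3049.8, 3011 and 3100.4 FPKM at d3, a rise of 7.25-fold (log2 fold change 2.86, standard error 0.029, limma, adjusted p = 3.1e-08). At d3 it was the 19th most abundant gene of the table in vWAT by mean and the most abundant of the 10.

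*Agt* (ENSMUSG00000031980, chromosome 8, 124556534 to 124569706, minus strand) encodes angiotensinogen, the precursor of the angiotensin peptides that raise blood pressure. Values were 114, 108 and 112 FPKM in siCtrl BAT at d0 and 55.3, 62.7 and 58.1 FPKM at d3. Its siCtrl vWAT values were 103, 103 and 100.03 FPKM at d0 and 317, 300.2 and 299.5 FPKM at d3. *Agt* was the 1 gene of the 9 called in opposite directions, since it fell in BAT (log2 fold change -0.91, standard error 0.054, limma, adjusted p = 7.1e-06) and rose in vWAT (log2 fold change 1.58, standard error 0.037, limma, adjusted p = 3.8e-07).

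*Nrg4* (ENSMUSG00000032311, chromosome 9, 55220222 to 55326844, minus strand) encodes neuregulin 4, a ligand of ErbB receptors that brown fat releases. The gene overlaps *Fbxo22* and the pseudogene *Gm15625* on the other strand, and whether fragments were counted by strand is not given in the sources used here. The table gave it 1.88, 1.78 and 2.46 FPKM in siCtrl BAT at d0 and 19.7, 21.4 and 21.7 FPKM at d3. The siCtrl vWAT libraries gave 2.23, 2.04 and 2.2 FPKM at d0 and 5.79, 5.45 and 6.01 FPKM at d3. The depots overlapped at d0, and it rose 10.3-fold in BAT (log2 fold change 2.86, standard error 0.10, limma, adjusted p = 6.2e-07) and 2.67-fold in vWAT (log2 fold change 1.10, standard error 0.075, limma, adjusted p = 2.8e-05).

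**Figure D3:**
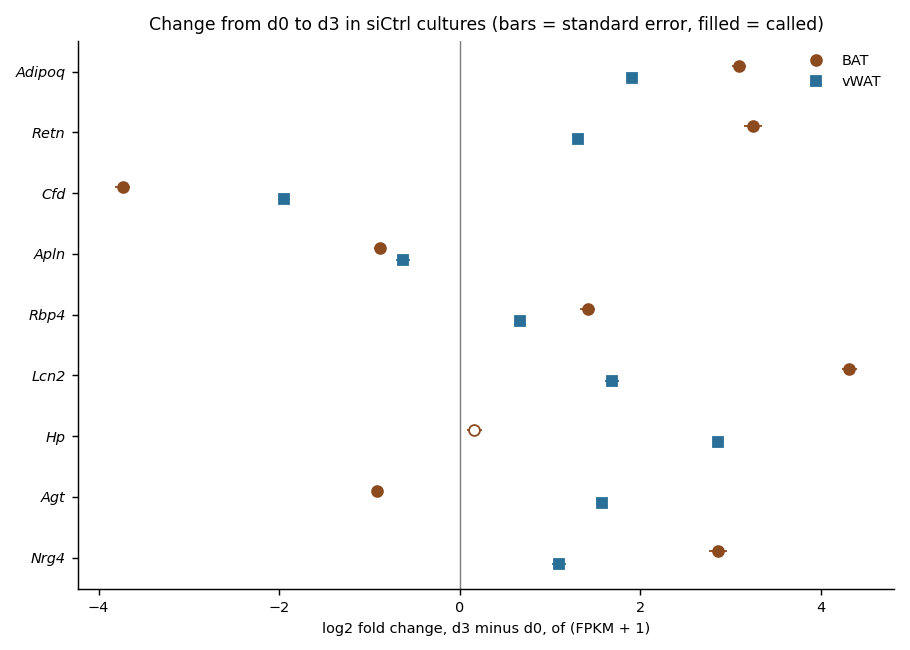
Difference between d3 and d0 on the log2(FPKM + 1) scale in siCtrl cultures for 9 genes, circles BAT, squares vWAT, bars the standard error, filled where called. *Agt* lies at -0.91 in BAT and at 1.58 in vWAT, and *Hp* is the 1 open symbol.

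All 9 genes differed between depots in their change from d0 to d3 (interaction of depot and day, limma), against 53.0% of all tested genes. The change was more positive in BAT for *Lcn2* (2.63 on the log2 scale), *Retn*, *Nrg4*, *Adipoq* and *Rbp4*. It was more negative in BAT for *Hp* (-2.70), *Agt* (-2.49), *Cfd* and *Apln*. That of *Apln* was the smallest (-0.26, limma, adjusted p = 0.047). It was called in 2 of 12 fits that left out 1 library, those without BAT siCtrl d0 replicate 3 or vWAT siCtrl d3 replicate 1, with adjusted p from 0.0063 to 0.1 (limma), and not after rescaling (0.14), with no filter (0.077), with a replicate block (0.053) or without both vWAT libraries with neutrophil genes (0.096). The 9 vWAT calls of d3 against d0 held without those libraries.

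Between the depots at d3, siCtrl BAT had more *Adipoq* and *Nrg4* than vWAT and less *Apln*, *Agt*, *Cfd*, *Hp*, *Retn* and *Lcn2*. These are 2 of 9 genes higher and 6 lower, against 16.5% and 32.1% of all tested genes, with a median of -1.71 against -0.16. BAT had 1.89 times the *Adipoq* level (log2 fold change 0.92, standard error 0.038, limma, adjusted p = 3.1e-06) and 3.64 times the *Nrg4* level (log2 fold change 1.70, standard error 0.069, limma, adjusted p = 2.8e-06). It had 0.118 of the *Apln* level (log2 fold change -2.89, standard error 0.085, limma, adjusted p = 1e-06) and 0.192 of the *Agt* level (log2 fold change -2.36, standard error 0.054, limma, adjusted p = 4.6e-07). *Cfd*, *Hp*, *Retn* and *Lcn2* were at 0.241, 0.285, 0.304 and 0.365 of the vWAT mean. *Rbp4* was 1.26 times higher without overlap, under the minimum fold (log2 fold change 0.32, standard error 0.045, limma, adjusted p = 0.00075), and was called once libraries were rescaled by the median ratio of genes.

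That rescaling moved the median of all genes by 0.123 on the log2 scale at d3 and by 0.113 at d0 in favour of BAT, and the calls over all genes from 2162 higher and 4216 lower to 2801 and 3347 at d3. At d0 the calls over all genes moved from 1343 higher and 2753 lower to 1833 and 1956. The differences above are larger than these shifts. Macrophage markers summed to 125 to 157 FPKM in BAT and 458 to 500.4 FPKM in vWAT siCtrl at d3 (4 of 4 tested called lower in BAT), with *Ptprc* under 1 FPKM in every BAT library. Mesothelial markers summed to 1.24 to 3.36 FPKM and 33.4 to 38.0 FPKM (3 of 4 called lower in BAT), with *Msln*, *Upk3b* and *Wt1* under 1 FPKM in BAT. Their part in these differences was not tested.

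At d0 the depots differed most in *Lcn2*, *Retn* and *Apln*. BAT had 0.0515 of the vWAT *Lcn2* level (log2 fold change -4.08, standard error 0.10, limma, adjusted p = 1.1e-06), 0.0711 of the *Retn* level (log2 fold change -3.65, standard error 0.063, limma, adjusted p = 3.8e-07) and 0.152 of the *Apln* level (log2 fold change -2.62, standard error 0.052, limma, adjusted p = 4.9e-07). *Hp* went the other way, at 1.84 times the vWAT level (log2 fold change 0.88, standard error 0.032, limma, adjusted p = 4.6e-06), and so the order of the depots for *Hp* turned round by d3. *Rbp4* was lower in BAT (log2 fold change -0.42, standard error 0.078, limma, adjusted p = 0.0047), a call lost after rescaling and without BAT siCtrl replicate 2, both times for the minimum fold. Thus 1 of 9 genes was higher and 4 were lower, against 10.2% and 21.0% of all tested genes. *Adipoq*, *Cfd*, *Agt* and *Nrg4* were not called, at ratios of 0.828, 0.866, 1.09 and 0.945. *Adipoq* and *Agt* were under the minimum fold, without overlap of the depots (limma, adjusted p of 0.021 and 0.025). *Cfd* did not overlap either (limma, adjusted p = 0.054), whereas *Nrg4* did. Without both vWAT libraries that held neutrophil genes, *Lcn2*, *Retn*, *Apln* and *Hp* remained called and *Rbp4* did not (limma, adjusted p = 0.065). Macrophage markers summed to 128 to 159.9 FPKM in BAT and 273 to 304 FPKM in vWAT siCtrl at d0 (4 of 5 called lower in BAT), mesothelial markers to 5.14 to 5.91 FPKM and 80.1 to 93.5 FPKM (4 of 4), and their part was not tested.

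At d0 every gene of the 9 that was called with the *H19* siRNA was lower. In BAT 6 of 9 genes fell and none rose, against 1.32% of all tested genes lower and 0.617% higher. In vWAT 4 of 9 fell and none rose, against 1.20% lower and 0.329% higher. Over all genes in vWAT, 43 were called higher and 157 lower, and 61 and 128 after rescaling. The median of the 9 genes was -0.72 in BAT and -0.41 in vWAT, against -0.027 and -0.033 over all tested genes.

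*Cfd* fell furthest. In BAT at d0 the siH19 libraries were at 50.2, 89.2 and 83.1 FPKM, and the lowest siCtrl library was at 207 FPKM (log2 fold change -1.63, standard error 0.21, limma, adjusted p = 0.026). In vWAT they were at 147, 126 and 153 FPKM, below the lowest siCtrl library at 248 FPKM (log2 fold change -0.88, standard error 0.085, limma, adjusted p = 0.0092). *Adipoq* was at 63.5, 103 and 86.8 FPKM in siH19 BAT, 0.410 of the siCtrl mean (log2 fold change -1.30, standard error 0.17, limma, adjusted p = 0.026). It was at 178, 161 and 159.9 FPKM in siH19 vWAT, 0.667 of the siCtrl mean (log2 fold change -0.58, standard error 0.055, limma, adjusted p = 0.0088). For both genes every siH19 library lay below every siCtrl library of its depot, and replicate 1 of siH19 BAT was the lowest. *Rbp4* also fell in both, to 30.0, 32.8 and 35.4 FPKM in BAT (log2 fold change -0.63, standard error 0.093, limma, adjusted p = 0.029) and 47.6, 46.5 and 52.5 FPKM in vWAT (log2 fold change -0.49, standard error 0.060, limma, adjusted p = 0.016).

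The remaining genes were called in 1 depot or in none. *Retn* fell in BAT to 2.76, 3.87 and 4.29 FPKM (log2 fold change -0.91, standard error 0.14, limma, adjusted p = 0.031). In vWAT it was at 85.2, 78.8 and 85.7 FPKM, without overlap but under the minimum fold (log2 fold change -0.36, standard error 0.049, limma, adjusted p = 0.022). *Hp* fell in BAT to 361, 467 and 432 FPKM (log2 fold change -0.89, standard error 0.091, limma, adjusted p = 0.018) and *Agt* to 60.6, 71.6 and 69.7 FPKM (log2 fold change -0.72, standard error 0.068, limma, adjusted p = 0.014). In vWAT *Hp* was at 355, 323 and 365 FPKM (log2 fold change -0.28, standard error 0.054, limma, adjusted p = 0.06) and *Agt* at 90.4, 83.0 and 84.2 FPKM (log2 fold change -0.24, standard error 0.047, limma, adjusted p = 0.059), both not called. *Apln* was the reverse case, called in vWAT at 49.0, 47.7 and 47.9 FPKM (log2 fold change -0.71, standard error 0.045, limma, adjusted p = 0.0045) and not in BAT at 8.41, 10.4 and 9.73 FPKM (log2 fold change -0.31, standard error 0.087, limma, adjusted p = 0.12). *Lcn2* was at 3.53, 6.07 and 5.88 FPKM in siH19 BAT, overlapping siCtrl, and at 86.7, 96.0 and 91.7 FPKM in siH19 vWAT, below all siCtrl libraries but with an adjusted p of 0.067 (limma). *Nrg4* was at 1.83, 2.07 and 2.18 FPKM in BAT and 2.74, 2.26 and 2.24 FPKM in vWAT, not called in either depot.

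These d0 calls rest on few libraries. In BAT none of the 9 genes was called without siCtrl replicate 1, 2 or 3 or without siH19 replicate 3, where the adjusted p rose to between 0.053 and 0.11 (limma), and 4 were called without siH19 replicate 1 or 2. In each of those fits the 6 genes stayed lower, by 0.57 to 1.79 on the log2 scale. In vWAT *Adipoq*, *Cfd* and *Apln* were called in all 6 fits that left out 1 library, and *Rbp4* in 1, the fit without siH19 replicate 3. Without both vWAT siCtrl libraries that held neutrophil genes none of the 9 was called (limma, adjusted p of 0.17 to 0.28 for the 4 genes), nor was *H19* itself (0.17), with 1 siCtrl library left. The log2 fold changes were then -0.84 for *Cfd*, -0.66 for *Apln*, -0.63 for *Adipoq* and -0.51 for *Rbp4*, and the lone library was assumed to vary like the others.

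Adipocyte markers moved in the same way at d0. In BAT they summed to 1069 to 1468 FPKM in siH19 against 2300.1 to 2491 FPKM in siCtrl, with 5 of 6 called lower. In vWAT they summed to 1646 to 1892 FPKM against 3067 to 3087 FPKM, again with 5 of 6 called lower. None of the 5 BAT marker calls was held in more than 3 of 6 fits that left out 1 library, and all were lost without siCtrl replicate 2 or 3 or siH19 replicate 3. In vWAT *Fabp4*, *Plin1* and *Lipe* were held in 6 of 6 such fits, and none without both libraries with neutrophil genes. Precursor markers were not called in either depot (0 of 4, at 734 to 754 FPKM against 596 to 675 FPKM in BAT). Macrophage markers summed to 97.3 to 98.1 FPKM in siH19 BAT against 128 to 159.9 FPKM (1 of 4 called lower, *Lyz2*). The mesothelial markers went the other way, at 8.33 FPKM or more in siH19 BAT against 5.14 to 5.91 FPKM, with the 1 tested, *Krt19*, called higher (log2 fold change 0.68, standard error 0.10, limma, adjusted p = 0.031) but in 0 of 6 fits that left out 1 library. The part of these cell types in the decrease was not tested.

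**Figure D4:**
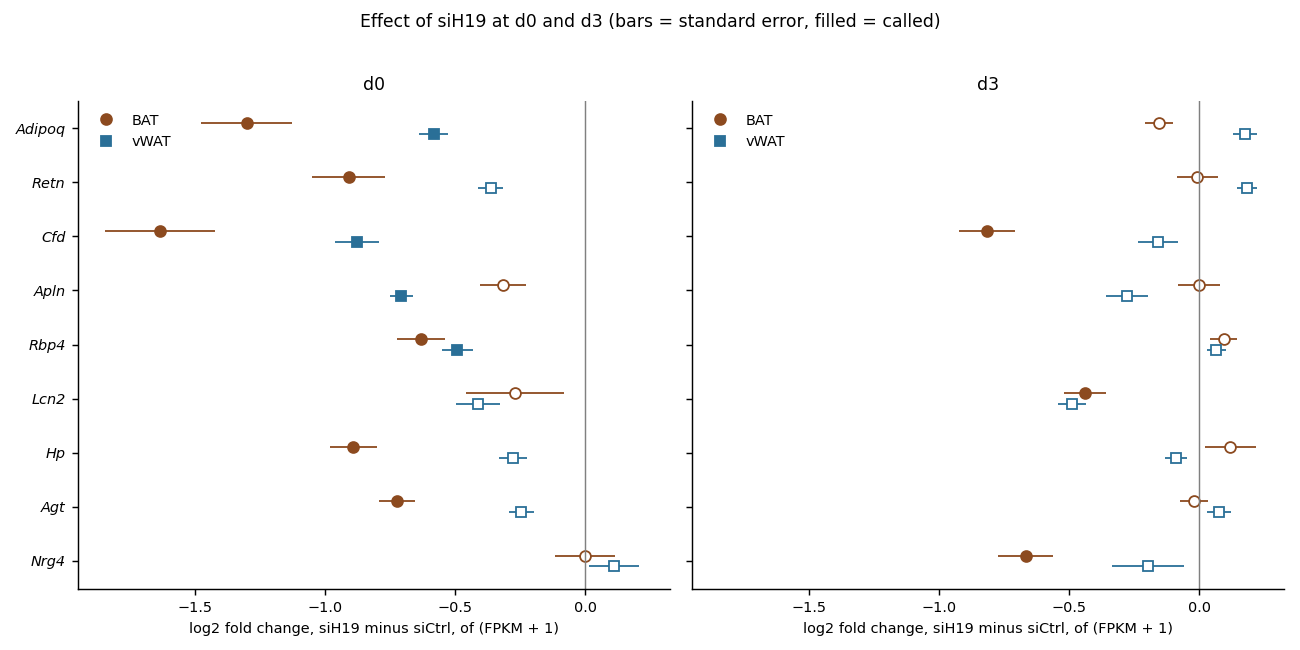
Difference between siH19 and siCtrl on the log2(FPKM + 1) scale for 9 genes at d0 (left) and d3 (right), circles BAT, squares vWAT, bars the standard error, filled where called. At d0, 8 of 9 genes lie below 0 in both depots, whereas at d3 the called genes are *Cfd*, *Lcn2* and *Nrg4*, all in BAT. *Lcn2* in vWAT at d3 lies at -0.49 and is not called.

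At d3, calls among the 9 genes with siH19 were in BAT alone. *Lcn2* also lay below all siCtrl libraries in vWAT, not called (log2 fold change -0.49, limma, adjusted p = 0.11), against -0.44 in BAT. In BAT *Cfd*, *Lcn2* and *Nrg4* fell with siH19, 3 of 9 genes, and none rose, against 2.18% of all tested genes lower and 6.39% higher. Over all genes 799 were called higher and 272 lower, and 627 and 410 after rescaling. *Cfd* was at 7.68, 9.93 and 8.58 FPKM in siH19 BAT, 0.543 of the siCtrl mean (log2 fold change -0.81, standard error 0.11, limma, adjusted p = 0.0056). *Nrg4* was at 13.6, 10.9 and 14.3 FPKM, 0.616 of it (log2 fold change -0.67, standard error 0.11, limma, adjusted p = 0.0097). *Lcn2* was at 104, 96.5 and 118 FPKM, 0.737 of it (log2 fold change -0.44, standard error 0.082, limma, adjusted p = 0.016). No siH19 library reached the lowest siCtrl library for these genes. The *Lcn2* call was lost without siH19 replicate 1 (limma, adjusted p = 0.052) and, for the minimum fold, without siH19 replicate 2.

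*Adipoq* in siH19 BAT at d3 was at 1475, 1623 and 1654 FPKM, below each siCtrl library but not called (log2 fold change -0.15, standard error 0.053, limma, adjusted p = 0.1). *Retn*, *Apln*, *Rbp4*, *Hp* and *Agt* overlapped between the siRNAs, at ratios of 0.991, 1.00, 1.07, 1.08 and 0.985. Their levels in siH19 BAT were 79.4, 81.5 and 80.0 FPKM for *Retn* and 861, 1034 and 937 FPKM for *Hp*. All 5 brown markers fell with siH19 at d3 (463 to 501 FPKM summed, against 735 to 853 FPKM), and 0 of 6 adipocyte markers were called. The 5 brown marker calls were held in 6 of 6 fits that left out 1 library. That of *Cox7a1* was lost in the fit on all 24 libraries (limma, adjusted p = 0.091). Precursor markers summed to 469.9 to 505 FPKM against 261 to 297 FPKM (3 of 3 tested called higher) and macrophage markers to 78.8 to 89.8 FPKM against 125 to 157 FPKM (2 of 4 called lower). *Ly6a* and *Lyz2* were held in 6 of 6 fits that left out 1 library, *Adgre1* in 3, and *Dlk1* and *Pdgfra* in 1 each. *Dlk1* and *Pdgfra* were also lost after rescaling (limma, adjusted p of 0.053 and 0.071) and with no filter (0.11 for both). The part of these markers in the 3 decreases was not tested.

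In vWAT at d3 none of the 9 genes was called (limma), against 0.0229% of all tested genes lower and 0.00764% higher. At an unadjusted p under 0.05 there were 1315 of 13097 genes, among them *Lcn2*, *Retn*, *Adipoq* and *Apln*. *Lcn2* was at 298, 262 and 285 FPKM in siH19 vWAT, 0.714 of the siCtrl mean (log2 fold change -0.49, standard error 0.054, limma, adjusted p = 0.11). *Retn* was at 298, 307 and 304 FPKM and *Adipoq* at 1126, 1024 and 1017 FPKM, each above all siCtrl libraries, at ratios of 1.14 and 1.13. *Apln* was at 42.7, 40.1 and 42.8 FPKM, below all siCtrl libraries. The difference between the depots was tested directly. At d3 *Cfd* (-0.66, adjusted p = 0.014) and *Adipoq* (-0.33, adjusted p = 0.019) were lower with siH19 in BAT relative to vWAT (interaction, limma), 2 of 9 against 10.5% of all tested genes. Over all genes 966 interactions were positive and 485 negative, and 635 and 759 after rescaling. Among the markers, 4 of 6 adipocyte, 5 of 5 brown and 3 of 4 macrophage markers were called negative and 0 positive. Of the precursor markers 2 of 4 were called positive. *Adipoq* lost the call without BAT siCtrl replicate 2 or vWAT siCtrl replicate 3 (adjusted p of 0.053 and 0.051, limma) and with no filter (0.051). The fit on all 24 libraries ended both calls (0.2 for *Adipoq* and 0.051 for *Cfd*), and *Lcn2* and *Nrg4* were not called (adjusted p of 0.82 and 0.14, limma).

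Further interactions were tested after the values had been seen. At d0 the siH19 effect was more negative in BAT than in vWAT for *Hp* (-0.61, adjusted p = 0.035, limma) and *Agt* (-0.48, adjusted p = 0.032, limma), 2 of 9 against 1.02% of all tested genes. These calls were lost in 10 and 9 of the 12 fits that left out 1 library, among them each fit without a siCtrl library (adjusted p up to 0.089, limma). Without both vWAT libraries with neutrophil genes they were lost as well (0.22 for *Hp* and 0.23 for *Agt*). The effect of siH19 changed from d0 to d3 in BAT for 6 of 9 genes, against 9.06% of all tested genes. It shifted upward for *Adipoq* (log2 fold change 1.15, standard error 0.20, limma, adjusted p = 0.0062), *Hp* (1.01), *Retn* (0.90), *Rbp4* (0.73) and *Agt* (0.70). The d3 effects of *Hp* (0.12) and *Rbp4* (0.094) were positive and not called, and those of *Adipoq*, *Retn* and *Agt* stayed negative. The effect became more negative for *Nrg4* (log2 fold change -0.67, standard error 0.16, limma, adjusted p = 0.026), a call held in 6 of 12 fits without 1 library. In vWAT it shifted upward for 5 of 9 genes, *Adipoq* (0.76), *Cfd* (0.72), *Rbp4* (0.56), *Retn* (0.55) and *Agt* (0.32), against 1.73% of all tested genes. The d3 effects of *Adipoq* (0.18), *Retn* (0.18), *Agt* (0.078) and *Rbp4* (0.067) were positive there and not called. The interaction of *Agt* was called in 3 of 12 such fits, and that of *Cfd* was lost without siH19 d3 replicate 1 (adjusted p = 0.053, limma). Without both vWAT libraries with neutrophil genes, *Cfd* and *Agt* were not called. Over all genes in BAT, 1058 interactions were positive and 172 negative, and 524 and 334 after rescaling. Adipocyte markers moved in the same way, with 5 of 6 called positive in BAT and 6 of 6 in vWAT, and 0 negative. Their medians were 0.73 and 0.90, against 0.73 and 0.43 for the 9 genes. In BAT 3 of 5 brown markers were called negative. The part of these markers was not tested.

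The change from d0 to d3 was also measured in siH19 cultures. In BAT 6 of 9 rose and 2 fell from d0 to d3, against 30.8% and 29.8% of all tested genes. *Hp* rose there, from 361, 467 and 432 FPKM to 861, 1034 and 937 FPKM (log2 fold change 1.17, standard error 0.11, limma, adjusted p = 6.9e-05). *Agt* in BAT was at 60.6, 71.6 and 69.7 FPKM at d0 and 58.0, 57.7 and 57.8 FPKM at d3, under the minimum fold. In vWAT 7 of 9 rose and 1, *Cfd*, fell, against 28.2% and 24.5% of all tested genes, and *Apln* was not called there (log2 fold change -0.20, standard error 0.046, limma, adjusted p = 0.0079). *Adipoq* rose 18.8-fold in BAT and 6.35-fold in vWAT.

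Of 26 matched receptors and partners of these proteins, 16 were tested from d0 to d3 in siCtrl BAT, where 4 were called higher and 8 lower, against 29.9% and 35.3% of all tested genes, with a median of -0.44 against -0.10. In vWAT 4 of 16 were higher and 5 lower, against 26.3% and 23.9%, with a median of -0.18 against 0.011. The shares called higher were near those of all genes. *Adipor2*, a receptor of adiponectin, rose from 46.9 ± 2.65 FPKM to 334 ± 4.27 FPKM in BAT (log2 fold change 2.81, standard error 0.048, limma, adjusted p = 4.2e-08) and from 57.0 ± 0.598 FPKM to 168 ± 4.55 FPKM in vWAT (SD, n = 3). *Cfb*, complement factor B and the substrate of adipsin, fell beside *Cfd*, from 67.3 ± 4.74 FPKM to 7.08 ± 1.82 FPKM in BAT (log2 fold change -3.10, standard error 0.16, limma, adjusted p = 3.3e-06) and from 172 ± 19.6 FPKM to 73.8 ± 3.55 FPKM in vWAT (SD, n = 3). *C3*, the complement protein that factor B acts with, fell in BAT from 129 ± 12.1 FPKM to 41.0 ± 2.80 FPKM (SD, n = 3). *Ero1l*, an oxidase of the endoplasmic reticulum that takes part in the release of adiponectin, rose in BAT (1.08) and fell in vWAT (-1.13). *Cd163*, the macrophage receptor of haptoglobin bound to haemoglobin, rose in vWAT from 0.906 ± 0.221 FPKM to 7.49 ± 0.868 FPKM (SD, n = 3). *Aplnr*, *Erbb4* and *Stra6*, receptors of apelin, neuregulins and retinol binding protein, stayed under 1 FPKM in every group mean and were singled out after their values had been seen.

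Between the depots at d3, 3 of 17 partners tested were higher in BAT and 11 lower, against 16.5% and 32.1% of all tested genes. *C3* was lower in BAT by far (log2 fold change -3.93, standard error 0.053, limma, adjusted p = 1.1e-07), as were *Cfb* (-3.23) and *Cd163* (-2.09). *Ero1l* (1.37) and *Adipor2* (0.99) were higher in BAT. At d0, 3 of 17 were higher in BAT and 8 lower, against 10.2% and 21.0%. *Agtr2*, a receptor of angiotensin, had the largest difference of the 3 called higher (log2 fold change 2.01, standard error 0.24, limma, adjusted p = 0.00066), and *Enpep*, an enzyme that trims angiotensin, was lower (-2.06). With siH19, 1 of 15 was called lower in BAT at d3, *Ero1l* (log2 fold change -0.46, standard error 0.060, limma, adjusted p = 0.0056), against 2.18% of all tested genes. At d0 in BAT 2 of 16 fell, *Cfb* (log2 fold change -0.63, standard error 0.11, limma, adjusted p = 0.039) and *Adipor2* (log2 fold change -0.50, standard error 0.088, limma, adjusted p = 0.041), against 1.32% of all tested genes. Neither was called in any of the 6 fits that left out 1 library (adjusted p from 0.052 to 0.14, limma). None was called in vWAT, of 15 tested at d0 and 16 at d3, against 1.20% and 0.0229% of all tested genes called lower.

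Of 21 other secreted factors of fat tested in siCtrl BAT, 6 rose and 13 fell from d0 to d3, against 29.9% and 35.3% of all tested genes (median -1.07 against -0.10). Of 19 in vWAT 6 rose and 10 fell, against 26.3% and 23.9% (median -1.33 against 0.011). The shares that rose were near those of all genes. The inflammatory cytokine *Il6* fell from 60.4 ± 2.91 FPKM to 1.74 ± 0.17 FPKM in BAT and from 249 ± 47.5 FPKM to 3.06 ± 0.502 FPKM in vWAT (SD, n = 3). *Ccl2*, a monocyte attractant, and *Metrnl* also fell in both depots. *Lpl*, lipoprotein lipase, and *Nampt*, an enzyme of nicotinamide salvage that is also secreted, rose in both. *Fgf21*, a hormone that brown fat can release, rose in BAT from 0.603 ± 0.124 FPKM to 6.07 ± 0.636 FPKM (SD, n = 3).

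Between the depots at d3, 7 of 19 such factors were higher in BAT and 8 lower, against 16.5% and 32.1% of all tested genes. At d0 4 of 21 were higher and 8 lower, against 10.2% and 21.0%. At d3 *Fgf21* (1.46) and *Retnla*, a relative of resistin (1.17), were higher in BAT, whereas *C1qtnf1*, a relative of adiponectin (-3.35), and *Igf1*, an insulin-like growth factor (-2.39), were lower (log2 fold changes, limma). *Retn*, unlike *Retnla*, was lower in BAT.

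With siH19 in BAT at d3, 9 of 20 such factors rose and 1 fell, against 6.39% and 2.18% of all tested genes, a split over all genes that rescaling narrowed as given above. *Ccl2* was at 13.7 ± 1.68 FPKM against 6.21 ± 1.5 FPKM (log2 fold change 1.05, standard error 0.16, limma, adjusted p = 0.0093), means ± SD of 3. *Fgf21* was the factor that fell, to 3.37 ± 0.429 FPKM (SD, n = 3; log2 fold change -0.70, standard error 0.11, limma, adjusted p = 0.01). At d0 in BAT *Rarres2*, which encodes chemerin (-0.73), and *Nampt* (-0.43) fell and *C1qtnf3* (0.64) rose, of 20 tested. Over all tested genes at d0, 1.32% were called lower and 0.617% higher in BAT, and 1.20% lower and 0.329% higher in vWAT. *Nampt* and *C1qtnf3* were called in 0 and *Rarres2* in 2 of 6 fits that left out 1 library. In vWAT 1 of 20 was called lower at d0, *Angptl2* (-0.46), which was called in 0 of 6 such fits and not without both libraries with neutrophil genes (adjusted p = 0.27, limma), and 0 of 19 were called at d3.

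The order of the group means shows which levels were distinct. *Adipoq* ran from 1760.4 ± 65.5 FPKM in siCtrl BAT at d3 to 84.4 ± 19.9 FPKM in siH19 BAT at d0 (SD, n = 3), and no neighbouring groups in its order overlapped. *Retn* ran from 303 ± 4.54 FPKM in siH19 vWAT at d3 to 3.64 ± 0.789 FPKM in siH19 BAT at d0 (SD, n = 3), and siH19 vWAT at d0 overlapped with BAT at d3. *Cfd* was highest in siCtrl vWAT at d0 and lowest in siH19 BAT at d3, and siH19 BAT at d0 overlapped with siCtrl vWAT at d3. *Lcn2* was highest in siCtrl vWAT at d3 and lowest in siH19 BAT at d0, and siCtrl vWAT at d0 overlapped with siH19 BAT at d3. *Hp* and *Agt* were highest in vWAT at d3, where the siRNAs overlapped for both. *Nrg4* was highest in siCtrl BAT at d3, then siH19 BAT at d3, with vWAT at d3 next.

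The 2 genes with a profile most like each member were found by Pearson r of log2(FPKM + 1) over the 24 libraries, among 12733 named genes. The libraries fall into 8 groups, so that r mostly reflects differences between groups. *Adipoq* was most like *Adig* (0.996) and the lipid droplet protein gene *Plin1* (0.995), and *Rbp4* most like *Plin1* (0.990) and the lipase gene *Lipe* (0.988). *Retn* and *Lcn2* shared the protease gene *Ctsc* (0.988 and 0.992), with *Tst* and *Mt1* next. *Nrg4* was most like *Plin5* (0.988) and *Ghitm*, *Agt* like *Fam65c* (0.984) and *Ctso*, and *Apln* like *Fbln1* (0.987) and *Saa3*. *Hp* was most like *Mterf4* (0.957) and *Cdkn1c*, the lowest likeness of the 9. *Cfd* was most like *Plppr3* (0.972) and *Slc30a5*. *Plppr3* lies on chromosome 10 at 16218 bases before *Cfd*, with *Prtn3*, which overlaps *Plppr3*, and *Elane* between them in GENCODE.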

How the data were processed

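Poly-A RNA of 24 cultures was sequenced. Per the submitters' processing notes, FastQC 0.10.1, TopHat2 2.0.10, STAR, Cufflinks 2.2.1, DESeq2 and R 3.2.2 were used with build GRCm38.p5. The authors deposited 1 table of 49452 genes whose values were read as FPKM from their range and the study's methods, since the table does not name its unit. It holds no counts, so depth is unknown and no counting interval could be given. Summed FPKM was 710794 to 841456 per library. FPKM is relative to all fragments of a library, so a few abundant genes can shift the others.

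Samples were grouped by their labels, and no 2 libraries shared more than 0.00564% identical positive values. The test was limma 3.58.1 (R 4.3.3, empirical Bayes with trend) on log2(FPKM + 1), with only the libraries of a comparison and genes with at least 1 FPKM in at least 3 of them. Calls needed a Benjamini-Hochberg adjusted p under 0.05 over all genes tested and a 1.3-fold change, except interactions, which needed no minimum fold. The script was tested on simulated data. Ratios are of group means. An exact permutation test of 3 against 3 cannot go below 0.1 and was not used.

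The 10 genes were reported in full. From 2 lists, receptors and partners (26 of 28 matched) and other secreted factors (29 of 32 matched), up to 4 called genes with the largest change per list, direction and comparison could be named. *Rbpr2*, *Ren1*, *Itln1*, *Asip* and *C1qtnf12* were not analysed here, and 1 other listed gene is not reported here by name. Genes and lists were chosen with earlier results of these data known. Promoter sequences are from RefSeq (GRCm38.p6), with 9 of 10 genes matched. Symbols were those of the table, with GENCODE vM21 for *H19*, for missing symbols and for neighbouring genes. Alternatives were a pseudocount of 0.1, no filter, no minimum fold, rescaling by the median ratio, a replicate block, a fit on all 24 libraries and leaving out each library. 3 interactions and the fit without both vWAT libraries with neutrophil genes were added after the data had been seen.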

Additional observations from a re-analysis of the deposited data

Results flagged for a closer look

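Results are given here because an effect on one of the 10 genes differed between the depots or between the days by a test of the difference itself (interaction, limma, differences on the log2(FPKM + 1) scale). No explanation was tested.

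The change from d0 to d3 in siCtrl cultures, BAT minus vWAT, differed for all 9 tested genes. It was 2.63 for *Lcn2*, 1.94 for *Retn*, 1.76 for *Nrg4*, 1.19 for *Adipoq* and 0.75 for *Rbp4*, and -2.70 for *Hp*, -2.49 for *Agt*, -1.78 for *Cfd* and -0.26 for *Apln*, which was called in 2 of 12 fits that left out 1 library. The depots also had different media and different prefixes in their sample descriptions, and neither can be told apart from depot.

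The effect of siH19, BAT minus vWAT, differed at d3 for *Cfd* (-0.66) and *Adipoq* (-0.33), and at d0 for *Hp* (-0.61) and *Agt* (-0.48). For *Adipoq* at d3 the siH19 libraries lay below siCtrl in BAT and above siCtrl in vWAT, while neither 2-group difference was called. Of the adipocyte markers 4 of 6 were called at d3, all negative, and 0 of 6 at d0.

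The effect of siH19 at d3 minus that at d0 differed in BAT for *Adipoq* (1.15), *Hp* (1.01), *Retn* (0.90), *Rbp4* (0.73), *Agt* (0.70) and *Nrg4* (-0.67). In vWAT it differed for *Adipoq* (0.76), *Cfd* (0.72), *Rbp4* (0.56), *Retn* (0.55) and *Agt* (0.32). *Nrg4* in BAT was the 1 gene of these called values whose siH19 effect was more negative at d3 than at d0. Adipocyte markers were called as well, 5 of 6 in BAT and 6 of 6 in vWAT, all positive.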

How the results depend on the processing

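Of 1899 alternative values for the 9 genes, 1738 kept their direction and their side of the threshold, 123 lost the call, 20 gained it and 18 turned direction. The depth is unknown and each group has 3 cultures. The cause of the lost calls was not tested.

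Counts of all genes called and, after a slash, of the 9 genes follow, by comparison. For siH19 in BAT at d0 (245/6), no filter gave 35/1, a replicate block 2/0, and for all genes the fit on all libraries 518 and no minimum fold 395. For siH19 in vWAT at d0 (200/4), the block gave 2/0, leaving out both libraries with neutrophil genes 5/0, no filter 65 and the fit on all libraries 385. For siH19 at d3, no minimum fold gave 2023 in BAT (1071), and in vWAT (4) the block gave 0 and the fit on all libraries 20. For the depots at d0 (4096), no minimum fold gave 6386 and leaving out both libraries 2728. For the interaction of depot and siRNA at d3 (1451/2), 1 of the 9 genes was called with no filter and 0 in the fit on all libraries. At d0 (140/2) it gave 85/0 with no filter, 81/0 with the block, 305/4 on all libraries and 4/0 without both libraries. For day and siRNA in vWAT (241/5) leaving out both libraries gave 63/3.

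Values near 0 turned direction. *Nrg4* with siH19 in BAT at d0 (-0.0004) became 0.0023 with a pseudocount of 0.1 and 0.017 after rescaling. Rescaling also gave 0.024 for *Nrg4* between depots at d0, and -0.045 for *Rbp4* and -0.024 for *Lcn2* in the interaction of depot and siRNA at d3.

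Without 1 library, all genes called ranged from 4 to 74 for siH19 in BAT at d0, 37 to 122 in vWAT at d0, 631 to 916 in BAT at d3 and 1 to 5 in vWAT at d3. The interactions ranged from 889 to 1432 (depot and siRNA, d3), 35 to 110 (d0), 801 to 1091 (day and siRNA, BAT) and 127 to 241 (vWAT). Of the 9 genes, 0 to 4 were called for siH19 in BAT at d0, 1 to 3 and 0 to 3 for depot and siRNA at d3 and d0, and 3 to 5 for day and siRNA in vWAT. Differences spanned -0.095 to 0.056 for *Retn*, -0.044 to 0.051 for *Apln* and -0.061 to 0.028 for *Agt* with siH19 in BAT at d3, and -0.061 to 0.096 for *Nrg4* at d0. For depot and siRNA at d3 they spanned -0.0051 to 0.066 for *Rbp4* and -0.029 to 0.114 for *Lcn2*.

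The deviations of same-numbered libraries from their group means correlated across genes at -0.113 to 0.062. Such low values cannot show whether same-numbered cultures shared a preparation, which is not stated in the sources used here. With the replicate block the 4 calls of siH19 in vWAT at d0 had adjusted p of 0.053 to 0.069 (limma).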
